A study of Homo sapiens with 18 samples.

Results

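The comparison examined here was the difference between 2 prostate cancer cell lines in their response to Stat5a/b siRNA: the change in CWR22Rv1 cells minus the change in DU145 cells. It used 12 of the 18 arrays of the series, 3 in each of 4 groups: CWR22Rv1 with siRNA to Stat5a and Stat5b, CWR22Rv1 with scrambled control siRNA, DU145 with siRNA to Stat5a and Stat5b, and DU145 with scrambled control siRNA. All cells, controls included, received Lipofectamine, a transfection reagent, and were collected after 48 h, per the labels. Total RNA was hybridised to Affymetrix arrays, and the deposited values are log2 expression levels per probe set. The labels describe unpooled triplicates without saying that they came from separate cultures, so a p-value here reflects only how far these samples spread, and that spread may be technical. As the RNA came from whole cultures, fewer cells of a kind and less RNA per cell cannot be told apart.

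CWR22Rv1 is an established line from a relapsed prostate xenograft that keeps luminal prostate features, and DU145 is an androgen-insensitive line from a metastasis. In control arrays the luminal prostate genes KLK2, HOXB13, TMPRSS2 and FOLH1 averaged 10.14, 9.35, 8.49 and 8.96 in CWR22Rv1, against 3.54, 4.44, 4.81 and 4.28 in DU145. KLK3, the gene of prostate-specific antigen, stood at 6.76 in CWR22Rv1 and 6.69 in DU145. The probe set used, the brightest of 3 for KLK3, can hybridise with related transcripts, so these values may not be of KLK3 alone. VIM and AXL averaged 7.03 and 5.03 in CWR22Rv1, against 13.05 and 12.05 in DU145. Within a group, the correlation of arrays across probe sets was 0.993 to 0.998. The median SD of a gene within a group was 0.0824 and 0.0724 in the siRNA and control arrays of CWR22Rv1, and 0.114 and 0.112 in those of DU145.

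STAT5A and STAT5B are closely related latent transcription factors. Receptors for prolactin, growth hormone and several cytokines activate Janus kinases, which phosphorylate them, and the resulting dimers enter the nucleus and bind palindromic sites called GAS elements. The interferon pathway acts on its target genes through the interferon-stimulated response element, or ISRE, which a complex containing IRF9 binds. A separate route, the integrated stress response, works through translation of ATF4, which with C/EBP proteins binds the composite site called CARE and activates genes of amino acid synthesis and stress.

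Promoter sequences of 5 genes on which the results below turn are given first, from RefSeq, assembly GRCh38.p14, each running from 250 bases before to 50 bases after the annotated start, on the gene's own strand. MX1 (chr21:41420308-41420607, plus strand) and IFIT5 (chr10:89414318-89414617, plus strand) are interferon-stimulated genes, and capitals mark matches to the ISRE core, which is GAAA, any 2 bases and GAAA. ASNS (chr7:97872359-97872658, minus strand) and CHAC1 (chr15:40953221-40953520, plus strand) are targets of ATF4, and capitals mark matches to TGATGNAA, the CARE pattern. CISH (chr3:50611725-50612024, minus strand) is a classical STAT5 target, and capitals mark matches to TTCNNNGAA, the GAS pattern. Both strands were searched for each pattern, so a match can read as its reverse complement.
MX1: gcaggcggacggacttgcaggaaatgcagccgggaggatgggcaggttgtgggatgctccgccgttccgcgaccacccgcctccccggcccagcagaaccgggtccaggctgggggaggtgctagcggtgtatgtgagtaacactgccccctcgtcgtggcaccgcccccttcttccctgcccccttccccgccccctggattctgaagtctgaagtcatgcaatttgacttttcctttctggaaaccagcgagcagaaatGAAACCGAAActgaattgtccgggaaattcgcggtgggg
IFIT5: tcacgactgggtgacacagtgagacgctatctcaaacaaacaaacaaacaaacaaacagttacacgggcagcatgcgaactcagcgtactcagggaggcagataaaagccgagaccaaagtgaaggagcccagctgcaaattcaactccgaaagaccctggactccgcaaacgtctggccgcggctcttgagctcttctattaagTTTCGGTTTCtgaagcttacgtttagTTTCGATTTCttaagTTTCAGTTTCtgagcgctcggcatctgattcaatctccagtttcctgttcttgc
ASNS: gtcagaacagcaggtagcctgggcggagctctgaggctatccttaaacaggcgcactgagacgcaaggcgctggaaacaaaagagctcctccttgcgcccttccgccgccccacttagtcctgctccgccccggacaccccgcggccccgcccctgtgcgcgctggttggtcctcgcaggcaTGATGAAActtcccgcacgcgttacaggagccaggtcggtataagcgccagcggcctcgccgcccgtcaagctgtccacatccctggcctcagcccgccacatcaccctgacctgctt
CHAC1: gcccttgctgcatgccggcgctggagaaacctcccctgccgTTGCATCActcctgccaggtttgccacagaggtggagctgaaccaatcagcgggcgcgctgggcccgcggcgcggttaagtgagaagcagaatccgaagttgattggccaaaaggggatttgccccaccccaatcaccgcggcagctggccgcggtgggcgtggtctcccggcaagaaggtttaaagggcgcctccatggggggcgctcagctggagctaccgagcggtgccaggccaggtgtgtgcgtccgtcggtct
CISH: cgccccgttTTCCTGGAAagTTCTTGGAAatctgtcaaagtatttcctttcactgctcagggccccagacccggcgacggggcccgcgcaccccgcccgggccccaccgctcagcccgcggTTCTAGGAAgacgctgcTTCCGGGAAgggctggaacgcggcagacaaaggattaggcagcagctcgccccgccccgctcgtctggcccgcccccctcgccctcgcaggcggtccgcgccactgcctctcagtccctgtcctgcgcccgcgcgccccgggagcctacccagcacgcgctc
IFIT5 held 3 ISRE matches and CISH held 4 GAS matches, whereas MX1, ASNS and CHAC1 held 1 match each to the pattern shown. A promoter was available for 15384 of the 19775 genes tested. The ISRE pattern was present in 2.94% of those promoters, CARE in 2.62% and GAS in 6.95%. Among the interferon-stimulated genes listed, 22 of 31 with a promoter (71.0%) held the ISRE, and 11 of 15 called for the difference between lines did. The CARE pattern was found in 4 of 25 members of the stress response list, HERPUD1, ATF3, CHAC1 and ASNS, and GAS in 3 of 14 textbook STAT5 targets, CISH, BCL6 and IRF1. These matches describe the letters in the window and not binding.

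The knock-down itself was checked first. STAT5B, the transcript targeted in both lines, read 7.17, 6.90 and 7.04 in CWR22Rv1 siRNA arrays, against 8.0, 7.87 and 7.95 in CWR22Rv1 control arrays. In DU145 it read 6.80, 6.63 and 6.61 with the siRNA, against 7.95, 8.01 and 8.16 in controls. In both lines every siRNA array lay under every control array, and STAT5B stood at 53.4% of control in CWR22Rv1 and 39.1% in DU145. The log2 change was -0.91 in CWR22Rv1 and -1.36 in DU145, and the difference between the lines was 0.45 ± 0.13 (SE of the fit, 3 arrays in each group; adjusted p = 0.0312). That call ended when any of 7 single arrays was left out, and with the mean over STAT5B probe sets the difference was 0.01; among the other STAT5B probe sets it ran from -0.37 to 0.24. Some of these other probe sets also fell, by 0.93 and 0.74 in CWR22Rv1 and by 1.17 and 0.63 in DU145. The rest showed no fall in either line, with changes of 0.10 and 0.05 in CWR22Rv1 and 0.24 and 0.42 in DU145. STAT5A read 5.56, 6.11 and 6.22 in CWR22Rv1 siRNA arrays, against 6.10, 6.37 and 6.44 in CWR22Rv1 control arrays, where the groups overlapped. In DU145 it read 5.90, 5.92 and 5.75 with the siRNA, against 6.18, 6.12 and 6.17 in controls, and its changes of -0.34 and -0.30 passed the test in neither line. STAT3, which these siRNAs do not target, changed by 0.13 in CWR22Rv1 and 0.16 in DU145, and neither its changes nor its difference passed. STAT4, not a target either, changed by 0.06 in CWR22Rv1 and -1.12 in DU145. Of 5 STAT genes measured, 2 were called higher for the difference, STAT5B and STAT4, and 0 lower. Fewer were called in 13 of the alternatives run.

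Each gene was tested in one linear model over all arrays, and a gene was called at a Benjamini-Hochberg adjusted p under 0.05 over all 19775 genes. The response differed between the lines for 2357 genes (11.9% of those tested), with 1335 (6.75%) higher in CWR22Rv1 and 1022 (5.17%) lower in CWR22Rv1. A higher value here means a larger rise or a smaller fall in CWR22Rv1 than in DU145. The median size of a called difference was 0.5 (quartiles 0.394 and 0.666), and 133 called genes differed by at least 1 on the log2 scale, 69 higher and 64 lower. Of the 133 genes, 33 had a mean log2 level under 5 in CWR22Rv1 controls alone, 12 in DU145 controls alone and 12 in both, so part of the largest differences involved a line where the transcript was dim. The share under 5 in the controls of either line was 42.9% of these 133, against 11.8% of the 2357 and 38.0% of all genes tested. Changes of dim transcripts have no exact size here. Of the genes named below, SOCS2, KRT4, FGFBP1, ALDH1A3, CCN5, ADAMTS15, IFI27, IFI44, IFIT2, XAF1, FRMD5, OAS1, ERAP2, CD14, S100A4, TNFRSF9, BCL2A1, ADAM12, NUDT11 and F2RL2 averaged under 5 in both CWR22Rv1 groups. PLPPR4, MSMB, H3C6, HS6ST2, RTKN2, PPP2R2B, STEAP4 and FOS did so in both DU145 groups. Among the called genes the median size of the change was 0.146 in CWR22Rv1 and 0.41 in DU145, and in 424 of 2357 the CWR22Rv1 change was the larger one.

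Stat5a/b siRNA changed 1277 genes (6.46%) in CWR22Rv1 against the line's own control: 3.16% of all genes rose and 3.3% fell. In DU145 it changed 4805 genes (24.3%): 11.8% of all genes rose and 12.5% fell. All 3 siRNA arrays lay beyond all 3 control arrays, in either direction, for 31.1% of genes in CWR22Rv1 and 34.4% in DU145. Among the 2357 genes called for the difference, 1701 were called in DU145 and not in CWR22Rv1, 242 in CWR22Rv1 and not in DU145, 147 in the same direction in both lines, 105 in opposite directions and 162 in neither line. The 3' minus 5' difference of the GAPDH control probe sets, a measure of RNA quality, was 0.147, 0.140 and 0.125 in CWR22Rv1 siRNA arrays, against 0.062, 0.097 and 0.091 in CWR22Rv1 control arrays, without overlap. In DU145 it was 0.126, 0.130 and 0.051 with the siRNA, against 0.153, 0.115 and 0.041 in controls, which overlapped, and that of ACTB overlapped in both lines. The part of RNA quality in the CWR22Rv1 changes was not tested. The classes above depend on a spread that was pooled over all groups. When each line had its own array weights, 2723 genes were called in CWR22Rv1 and 3497 in DU145, and 220 genes moved in opposite directions. Leaving out any 1 of the 6 CWR22Rv1 arrays left 718 to 844 genes called in CWR22Rv1 and 57 to 68 in opposite directions.

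**Figure D1:**
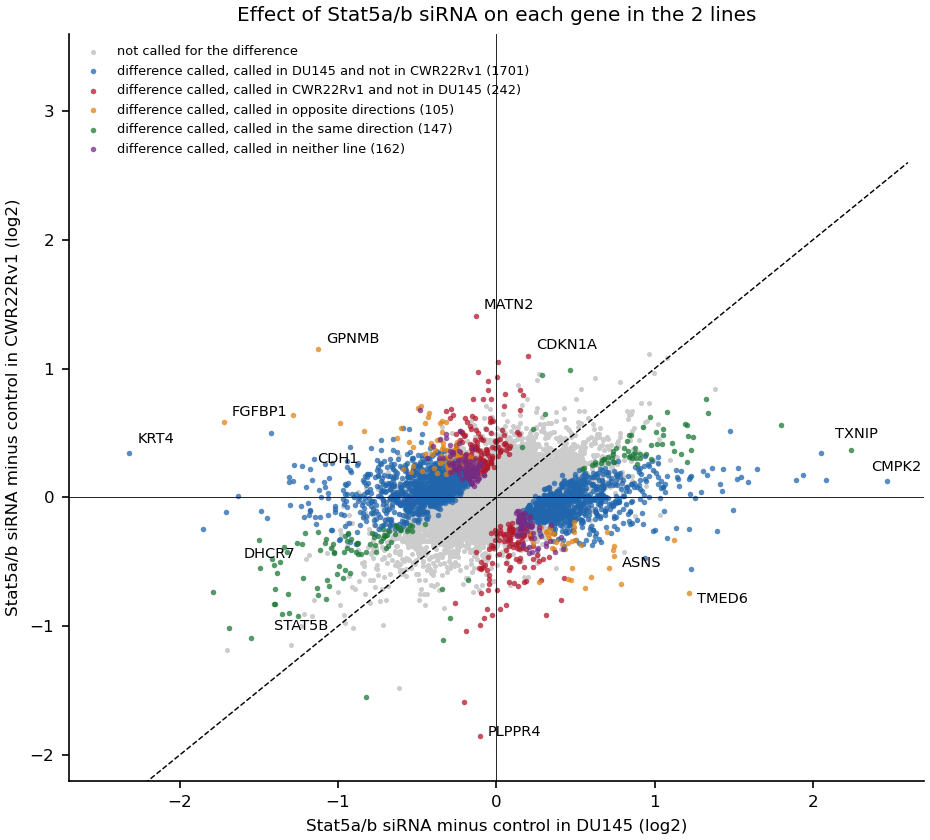
Log2 change with Stat5a/b siRNA in CWR22Rv1 (vertical axis) against that in DU145 (horizontal axis), 1 point per gene, 3 arrays against 3 in each line. Coloured points are the 2357 genes called for the difference, split by where they were called; the dashed line marks equal change, and most called genes lie along the horizontal axis.

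Epithelial genes were among those with a higher response in CWR22Rv1, most of them through falls in DU145. Of 19 luminal and epithelial genes measured, 10 were called higher and 0 lower, with a median difference of 0.38 against 0.01 over all genes. In DU145 10 members fell and 2 rose, and in CWR22Rv1 1 fell and 2 rose. CDH1, the gene of E-cadherin, read 12.09, 12.05 and 12.02 in CWR22Rv1 siRNA arrays, against 11.83, 11.81 and 11.86 in CWR22Rv1 control arrays. In DU145 CDH1 read 8.92, 9.09 and 8.74 with the siRNA, against 10.07, 10.15 and 10.07 in controls. The groups did not overlap in either line, but they were ordered oppositely: CDH1 fell to 44.2% of control in DU145, while its CWR22Rv1 change of 0.22 did not pass (difference 1.40 ± 0.11, adjusted p = 3.2e-06). CLDN3, a tight junction claudin whose probe set can hybridise with related transcripts, rose by 0.66 in CWR22Rv1 and fell by 0.42 in DU145 (difference 1.08). CLDN7, the epithelial transcription factor ELF3, and SPINT1 and ST14, an inhibitor and its membrane serine protease, had differences of 0.59, 0.99, 0.80 and 0.70, each with a fall in DU145 and no call in CWR22Rv1. VIM, the mesenchymal intermediate filament, changed by -0.08 in CWR22Rv1 and 0.11 in DU145, and its difference did not pass. Mesenchymal genes as a list held 3 higher and 1 lower among 21, with ITGA5, FN1 and COL1A1 higher and LOX lower. In DU145 6 of the 21 fell and 2 rose, and in CWR22Rv1 1 fell and 1 rose.

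KRT4, a keratin of stratified epithelia, had the highest value among called differences, but it rests on dim levels. It read 4.50, 4.64 and 4.63 in CWR22Rv1 siRNA arrays, against 4.38, 4.13 and 4.24 in CWR22Rv1 control arrays, all dim. In DU145 KRT4 read 5.04, 5.29 and 4.43 with the siRNA, against 7.75, 7.55 and 6.42 in controls. The DU145 groups did not overlap (difference 2.66 ± 0.44, adjusted p = 0.00104), but as the siRNA arrays were near the dim level too, neither the size of the fall nor the rank is exact. Its other probe set gave a difference of 0.14. GPNMB, a transmembrane glycoprotein, moved in opposite directions at levels well above the dim range in CWR22Rv1: it read 8.53, 8.53 and 8.32 in CWR22Rv1 siRNA arrays, against 7.36, 7.28 and 7.30 in CWR22Rv1 control arrays. In DU145 GPNMB read 5.36, 5.14 and 5.03 with the siRNA, against 6.35, 6.40 and 6.16 in controls. It stood at 222% of control in CWR22Rv1 and 45.8% in DU145, with no overlap of the groups in either line (difference 2.27 ± 0.15, adjusted p = 1.73e-06). CLIC3, a chloride intracellular channel family member, likewise rose by 0.64 in CWR22Rv1 and fell by 1.28 in DU145. FGFBP1, a secreted carrier of fibroblast growth factors, rose by 0.58 in CWR22Rv1 and fell by 1.72 in DU145. The desmosomal plakin PPL, the retinoic acid-forming enzyme ALDH1A3, the water channel AQP3 and the carbonic anhydrase-related CA11 had DU145 changes of -1.42, -1.63, -1.23 and -1.71, all called, and none of the 4 was called in CWR22Rv1. The matricellular CCN5 and the protease ADAMTS15 had differences of 1.60 and 1.53, again with falls in DU145.

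Genes of cholesterol synthesis fell for the most part in DU145 after Stat5a/b knock-down, and few of them were called in CWR22Rv1. Of 16 sterol enzymes measured, 11 were called higher for the difference and 0 lower, with a median difference of 0.55. In DU145 12 fell and 0 rose; in CWR22Rv1 1 fell and 1 rose. DHCR7, which catalyses the last step to cholesterol, read 9.87, 10.04 and 9.92 in CWR22Rv1 siRNA arrays, against 10.23, 10.31 and 10.28 in CWR22Rv1 control arrays. In DU145 DHCR7 read 8.75, 8.78 and 8.85 with the siRNA, against 10.27, 10.30 and 10.30 in controls. The siRNA arrays lay below the controls in both lines, at 79.6% of control in CWR22Rv1 and 35.4% in DU145 (difference 1.17 ± 0.09, adjusted p = 3.2e-06). TM7SF2, a sterol C14 reductase, was the one member with opposite calls, rising by 0.58 in CWR22Rv1 and falling by 0.99 in DU145 (difference 1.57 ± 0.11). LSS, which closes the sterol rings, and SQLE, squalene epoxidase, fell by 0.84 and 1.02 in DU145 and were not called in CWR22Rv1, where they changed by 0.13 and -0.06. SC5D, MVD, MSMO1, IDI1, HSD17B7, EBP and FDPS had called differences between 0.40 and 0.77.

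SREBF2, the transcription factor that drives sterol genes, its escort SCAP and the retention protein INSIG1 fell by 0.38, 0.46 and 0.66 in DU145 and were not called in CWR22Rv1, with differences of 0.53, 0.51 and 0.61. Of 11 regulators and uptake genes, 4 were called higher and 0 lower; the fourth, the exporter ABCG1, reversed to -0.09 when its probe set of highest variance was used. Fatty acid synthesis gave 4 higher and 1 lower of 12. FASN, fatty acid synthase, and SCD, the stearoyl desaturase, had differences of 0.70 and 0.79 and fell in DU145 by 0.72 and 0.65. The sterol response pattern TCACNCCAC was found in 0 of 14 sterol promoters, against 1.09% of all promoters, in the window searched.

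Interferon-stimulated genes gave differences of the opposite sign, and most of them rose in DU145. Of 38 measured, 0 were called higher and 18 lower for the difference, with a median difference of -0.72. In DU145 26 rose and 1 fell, and in CWR22Rv1 0 rose and 1 fell. MX1, a dynamin-like antiviral GTPase, read 5.33, 5.84 and 5.74 in CWR22Rv1 siRNA arrays, against 5.36, 5.46 and 5.68 in CWR22Rv1 control arrays. In DU145 MX1 read 11.07, 11.05 and 10.29 with the siRNA, against 9.01, 9.21 and 8.51 in controls. The CWR22Rv1 groups overlapped, whereas in DU145 every siRNA array was above every control array at 371% of control (difference -1.76 ± 0.33, adjusted p = 0.00295). CMPK2, a mitochondrial nucleotide kinase induced by interferon, had the lowest difference of all genes called. It read 7.60, 7.47 and 7.49 in CWR22Rv1 siRNA arrays, against 7.44, 7.34 and 7.39 in CWR22Rv1 control arrays. In DU145 CMPK2 read 6.71, 6.82 and 6.52 with the siRNA, against 3.94, 4.01 and 4.68 in controls, so that its DU145 control level was dim (difference -2.34 ± 0.20, adjusted p = 7.79e-06). IFIT5, an RNA-binding effector, was the member with opposite calls: it fell by 0.55 in CWR22Rv1 and rose by 0.48 in DU145 (difference -1.02 ± 0.12). The other IFIT5 probe set showed no fall in CWR22Rv1, with changes of 0.04 there and 0.37 in DU145. Its difference of -0.33 was not called. IFI44, IFIT2, XAF1, OAS1, ISG15 and the ISG15 protease USP18 had called differences of -1.59, -1.46, -1.38, -1.37, -1.06 and -0.89, and the call of IFI27 (-1.76) ended when single arrays were left out.

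The mean of the 38 genes, set to the line's control mean, was 0.037, 0.067 and 0.090 in CWR22Rv1 siRNA arrays, against -0.016, 0.002 and 0.014 in CWR22Rv1 control arrays. In DU145 it was 1.010, 0.972 and 0.454 with the siRNA, against 0.076, 0.106 and -0.183 in controls. The groups did not overlap in either line, and DU145 replicate 3 had the lowest value in both its groups. Over the alternatives run, 12 to 23 members were called lower.

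Components of the pathway itself moved in both directions. IRF9, the DNA-binding subunit of the complex that recognises the ISRE, read 7.49, 7.59 and 7.44 in CWR22Rv1 siRNA arrays, against 7.62, 7.61 and 7.59 in CWR22Rv1 control arrays. In DU145 IRF9 read 10.16, 10.22 and 9.97 with the siRNA, against 9.06, 9.11 and 9.0 in controls, at 208% of control with no overlap (difference -1.16 ± 0.11, adjusted p = 1.11e-05). IRF7, an interferon-inducible regulator, rose by 1.22 in DU145 and was not called in CWR22Rv1 (difference -1.46 ± 0.21). IFNAR1, a chain of the type I interferon receptor, fell in both lines, to 65.0% of control in CWR22Rv1 and 42.9% in DU145 (difference 0.60 ± 0.11), and its call ended with the mean over probe sets, at 0.24. RIGI, a sensor of double-stranded RNA, was the 1 called member of 11 sensors, with a difference of -0.67. Class I antigen presentation gave 2 higher and 0 lower of 15, PSMB10 and ERAP2. Both shares were near the 11.9% of all genes called in either direction. ERAP2 was called at 1 of its 5 probe sets.

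**Figure D2:**
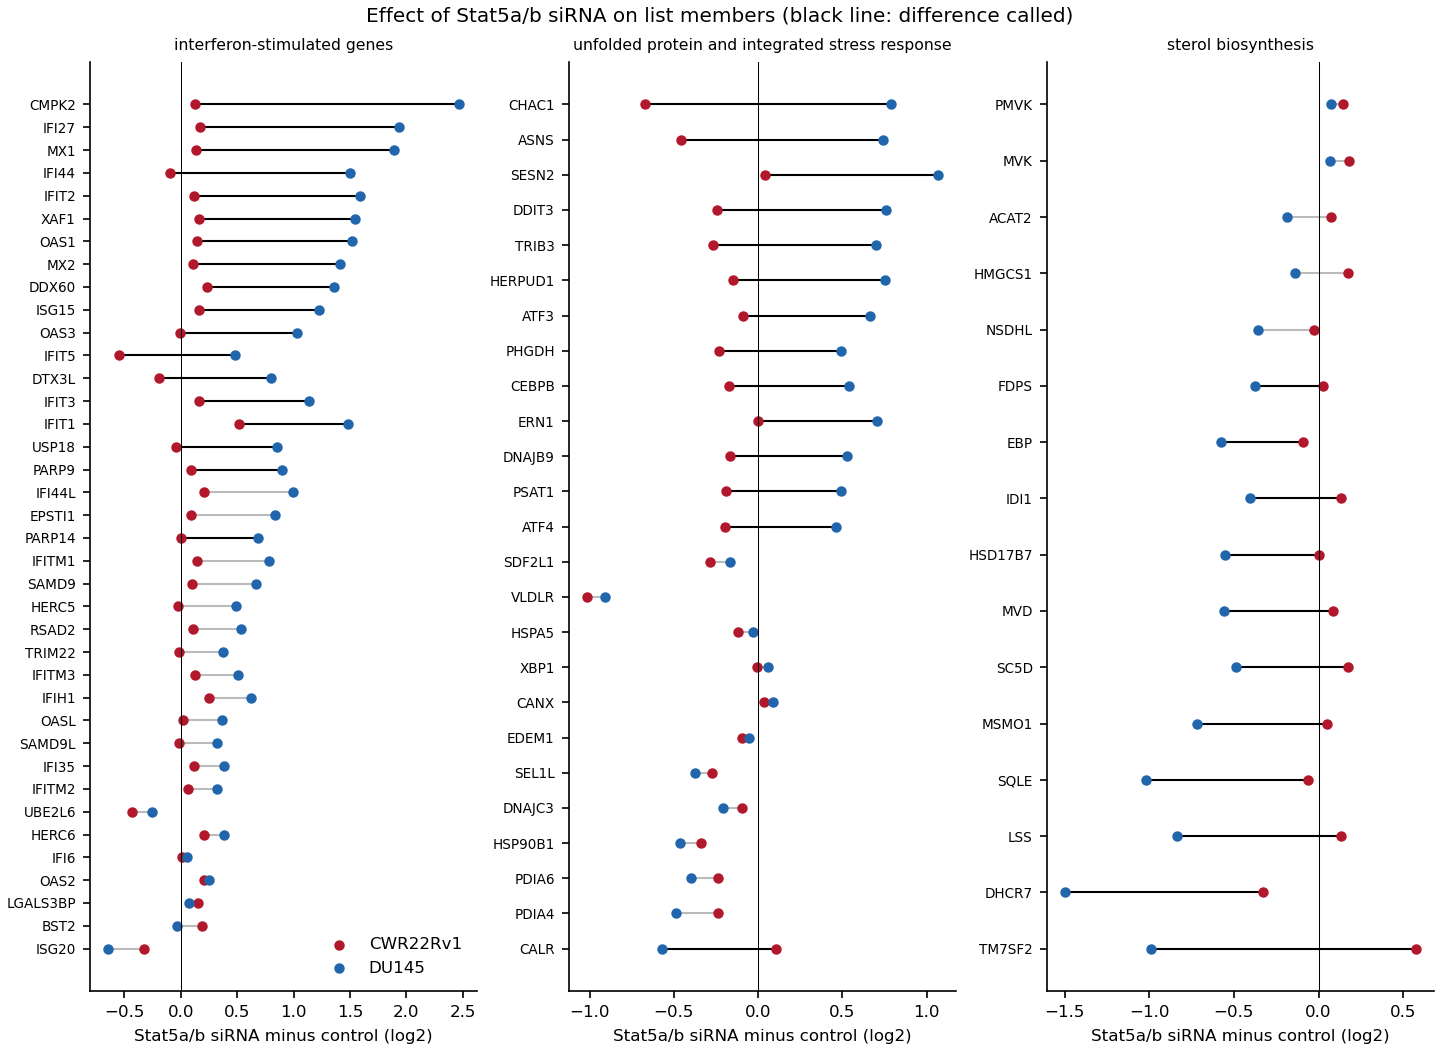
Log2 change with Stat5a/b siRNA for each member of 3 lists, CWR22Rv1 in red and DU145 in blue, each from 3 arrays against 3, joined by a black line where the difference was called. Interferon-stimulated and stress response genes lie mostly to the right in DU145, and sterol genes mostly to the left in DU145.

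Several integrated stress response genes fell in CWR22Rv1 and rose in DU145. Of 25 members of the unfolded protein and integrated stress response list, 13 were called lower for the difference and 1 higher, with a median difference of -0.66, and each alternative run also called 13 lower. In CWR22Rv1 10 members fell and 0 rose; in DU145 13 rose and 6 fell. ASNS, asparagine synthetase, read 11.36, 11.42 and 11.31 in CWR22Rv1 siRNA arrays, against 11.82, 11.81 and 11.83 in CWR22Rv1 control arrays. In DU145 ASNS read 11.20, 11.15 and 11.39 with the siRNA, against 10.48, 10.43 and 10.60 in controls. It fell to 72.8% of control in CWR22Rv1 and rose to 167% in DU145, without overlap in either line (difference -1.20 ± 0.11, adjusted p = 9.79e-06). CHAC1, a glutathione-degrading enzyme, read 5.81, 5.94 and 5.75 in CWR22Rv1 siRNA arrays, against 6.41, 6.46 and 6.64 in CWR22Rv1 control arrays. In DU145 CHAC1 read 7.26, 7.19 and 7.36 with the siRNA, against 6.43, 6.54 and 6.48 in controls, so that controls of the lines were at a like level and the siRNA arrays parted in both directions (difference -1.46 ± 0.15, adjusted p = 2.68e-05).

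TRIB3, a pseudokinase induced by ATF4, and PSAT1, an enzyme of serine synthesis, were also called in opposite directions, with differences of -0.97 and -0.69. SLC7A11, the cystine importer, which is listed with NRF2 targets and is also induced by ATF4, fell by 0.41 in CWR22Rv1 and rose by 0.74 in DU145 (difference -1.15 ± 0.14). ATF4 itself rose to 138% of control in DU145 and changed by -0.20 in CWR22Rv1, without a call there (difference -0.66 ± 0.09, adjusted p = 0.000328). DDIT3, SESN2, HERPUD1, ATF3, PHGDH, CEBPB, ERN1 and DNAJB9 were the other members called lower. The lectin chaperone CALR was the member called higher (0.68), and it fell in DU145; its call ended with other probe set choices. HSPA5, HSP90B1, PDIA4, PDIA6, CANX and XBP1, the chaperones, folding enzymes and a transcription factor of the endoplasmic reticulum branch, were not called for the difference.

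**Figure D3:**
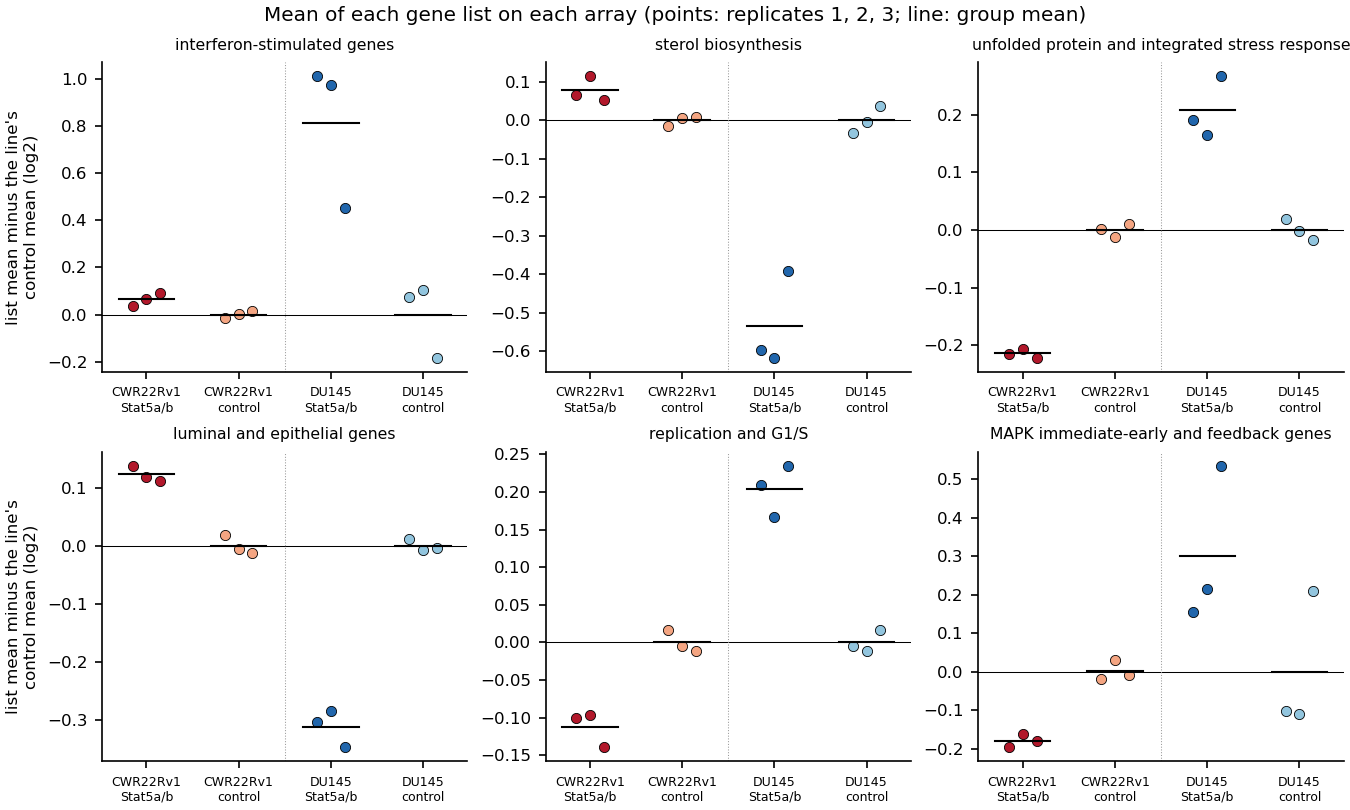
Mean log2 level of each of 6 gene lists on each array (points, 3 per group) minus the mean of that line's control arrays, with group means as lines. CWR22Rv1 siRNA arrays lie below their controls for the stress response list at -0.206 to -0.222, and DU145 siRNA arrays above theirs at 0.165 to 0.267.

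Genes of DNA replication were called in the same direction as the stress genes, at a smaller size. Of 34 replication and G1/S genes, 17 were called lower for the difference and 0 higher, with a median difference of -0.31. In CWR22Rv1 7 fell and 0 rose; in DU145 17 rose and 1 fell. CCNE2, cyclin E2, read 9.84, 9.75 and 9.91 in CWR22Rv1 siRNA arrays, against 9.90, 9.86 and 9.76 in CWR22Rv1 control arrays. In DU145 CCNE2 read 9.74, 9.80 and 9.86 with the siRNA, against 8.20, 8.54 and 8.89 in controls, at 239% of control (difference -1.27 ± 0.18, adjusted p = 0.000328). The CWR22Rv1 groups overlapped and the DU145 groups did not. CDC6, a licensing factor of replication origins, rose by 0.54 in DU145 and was not called in CWR22Rv1 (difference -0.73). MCM10 was called in opposite directions, with changes of -0.28 in CWR22Rv1 and 0.37 in DU145. FEN1, GINS1, RRM2 and UNG had differences of -0.56, -0.59, -0.47 and -0.49.

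Mitotic genes gave 10 lower and 0 higher of 31, with a median difference of -0.25; CCNA2, NDC80 and CCNB1 had differences of -0.47, -0.38 and -0.31. This count was 18 with an intensity trend and robust fit and 3 with the probe set of highest variance. It was 6 without CWR22Rv1 siRNA replicate 2 and 6 without CWR22Rv1 control replicate 1 or 3. CDKN1A, the inhibitor p21, changed mainly in CWR22Rv1. It read 10.11, 10.17 and 10.16 in CWR22Rv1 siRNA arrays, against 9.02, 9.08 and 9.03 in CWR22Rv1 control arrays. In DU145 CDKN1A read 8.28, 8.18 and 8.63 with the siRNA, against 8.14, 8.28 and 8.07 in controls. It rose to 214% of control in CWR22Rv1 without overlap, whereas the DU145 groups overlapped at 115% (difference 0.90 ± 0.13, adjusted p = 0.000377). E2F3, an activator of S phase genes, rose by 0.80 in DU145 and was not called in CWR22Rv1 (difference -0.69).

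Among survival and death genes of the BCL2 family, 2 of 17 were called higher and 2 lower. PMAIP1, the BH3-only protein NOXA, fell to 65.3% of control in CWR22Rv1 and rose to 152% in DU145 (difference -1.21 ± 0.18, adjusted p = 0.000571). BCL2L2, an inhibitor of apoptosis, fell in both lines, by 0.28 in CWR22Rv1 and by 1.21 in DU145 (difference 0.93 ± 0.11). MCL1 had a difference of -0.51 and BCL2L11 of 0.43; both calls ended with other probe set choices, and that of BCL2L11 reversed to -0.07.

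Among genes that ERK signalling induces, called differences were all lower in CWR22Rv1. Of 21 immediate-early and feedback genes, 6 were called lower and 0 higher: ETV5, ETV4, SPRY4, SPRY2, SPRED2 and FOS. ETV5, an ETS transcription factor, read 7.17, 7.42 and 7.32 in CWR22Rv1 siRNA arrays, against 7.85, 7.86 and 7.84 in CWR22Rv1 control arrays. In DU145 ETV5 read 9.31, 9.32 and 9.54 with the siRNA, against 8.56, 8.70 and 8.77 in controls. The groups parted in opposite directions, to 68.4% of control in CWR22Rv1 and 164% in DU145 (difference -1.26 ± 0.12, adjusted p = 1.56e-05). The other ETV5 probe sets gave differences from -0.86 to -0.22, none of them called. ETV4, its paralogue, fell to 64.1% of control in CWR22Rv1 and rose to 139% in DU145 (difference -1.12 ± 0.18). The list mean was 0.154, 0.215 and 0.535 in DU145 siRNA arrays, against -0.101, -0.109 and 0.210 in DU145 control arrays, so replicate 3 was highest in both and the groups overlapped. A fit that blocked on replicate number called 12 members lower.

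Genes that responded in CWR22Rv1 and were not called in DU145 included enzymes of detoxification. NQO1, a quinone reductase and NRF2 target, read 9.74, 9.85 and 9.77 in CWR22Rv1 siRNA arrays, against 8.82, 8.89 and 8.84 in CWR22Rv1 control arrays. In DU145 NQO1 read 12.92, 12.91 and 12.96 with the siRNA, against 12.95, 12.87 and 12.95 in controls, high and overlapping (difference 0.93 ± 0.08, adjusted p = 1.02e-05). CYP1A1, a target of the aryl hydrocarbon receptor, rose to 187% of control in CWR22Rv1 and stood at 96.4% in DU145 (difference 0.96 ± 0.13). Other NRF2 targets went the opposite way: SRXN1, sulfiredoxin, rose to 203% of control in DU145 and was not called in CWR22Rv1 (difference -0.87 ± 0.07). Over the list of 17 NRF2 targets, 3 were higher and 6 lower. MATN2, an extracellular matrilin, rose to 266% of control in CWR22Rv1 and stood at 91.5% in DU145 (difference 1.54 ± 0.21). The secretory protein gene MSMB and the histone genes H3C6 and H2AC6 rose by 1.05, 0.97 and 0.83 in CWR22Rv1; MSMB was dim in CWR22Rv1 controls as well, at 4.11, and the other H3C6 probe set gave a difference of 0.34. ERO1A, an oxidase of protein folding listed with hypoxia targets, rose by 0.76 there at the probe set used. Its other probe sets changed by -0.29 and -0.11 in CWR22Rv1, with differences of 0.04 and 0.19 that were not called.

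PLPPR4, a phospholipid phosphatase-related membrane protein, was the strongest fall named in CWR22Rv1. It read 4.33, 4.50 and 4.71 in CWR22Rv1 siRNA arrays, against 6.47, 6.27 and 6.36 in CWR22Rv1 control arrays. In DU145 it was dim, at 2.89, 2.66 and 2.92 with the siRNA, against 3.03, 2.97 and 2.77 in controls, where a fall could hardly be measured (difference -1.75 ± 0.24, adjusted p = 0.000303). The heparan sulfate sulfotransferase HS6ST2 fell by 1.59 in CWR22Rv1 and was also dim in DU145. BCAT1, a branched-chain aminotransferase, fell to 53.1% of control in CWR22Rv1 and stood at 98.2% in DU145, where it was well expressed at 10.97 to 11.04 in controls (difference -0.89 ± 0.09). NIBAN1, RTKN2 and PPP2R2B fell by 1.04, 0.99 and 0.94 in CWR22Rv1 and were not called in DU145.

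TXNIP and ARRDC4, alpha-arrestins that limit glucose uptake and are induced by MondoA, rose in both lines and more in DU145. TXNIP read 10.68, 10.69 and 10.69 in CWR22Rv1 siRNA arrays, against 10.33, 10.35 and 10.29 in CWR22Rv1 control arrays. In DU145 TXNIP read 7.93, 7.74 and 7.61 with the siRNA, against 5.47, 5.56 and 5.53 in controls. The groups did not overlap in either line, and TXNIP stood at 129% of control in CWR22Rv1 and 473% in DU145 (difference -1.88 ± 0.14, adjusted p = 1.73e-06). ARRDC4 rose to 148% of control in CWR22Rv1 and 348% in DU145 (difference -1.23 ± 0.17). Its promoter was 1 of 2 among the 8 of the list that held the E-box CACGTG, a pattern found in 8.9% of all promoters. CEMIP2, ERLIN2 and FRMD5 fell in both lines and more in DU145, with differences of 1.06, 0.96 and 0.94.

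**Figure D4:**
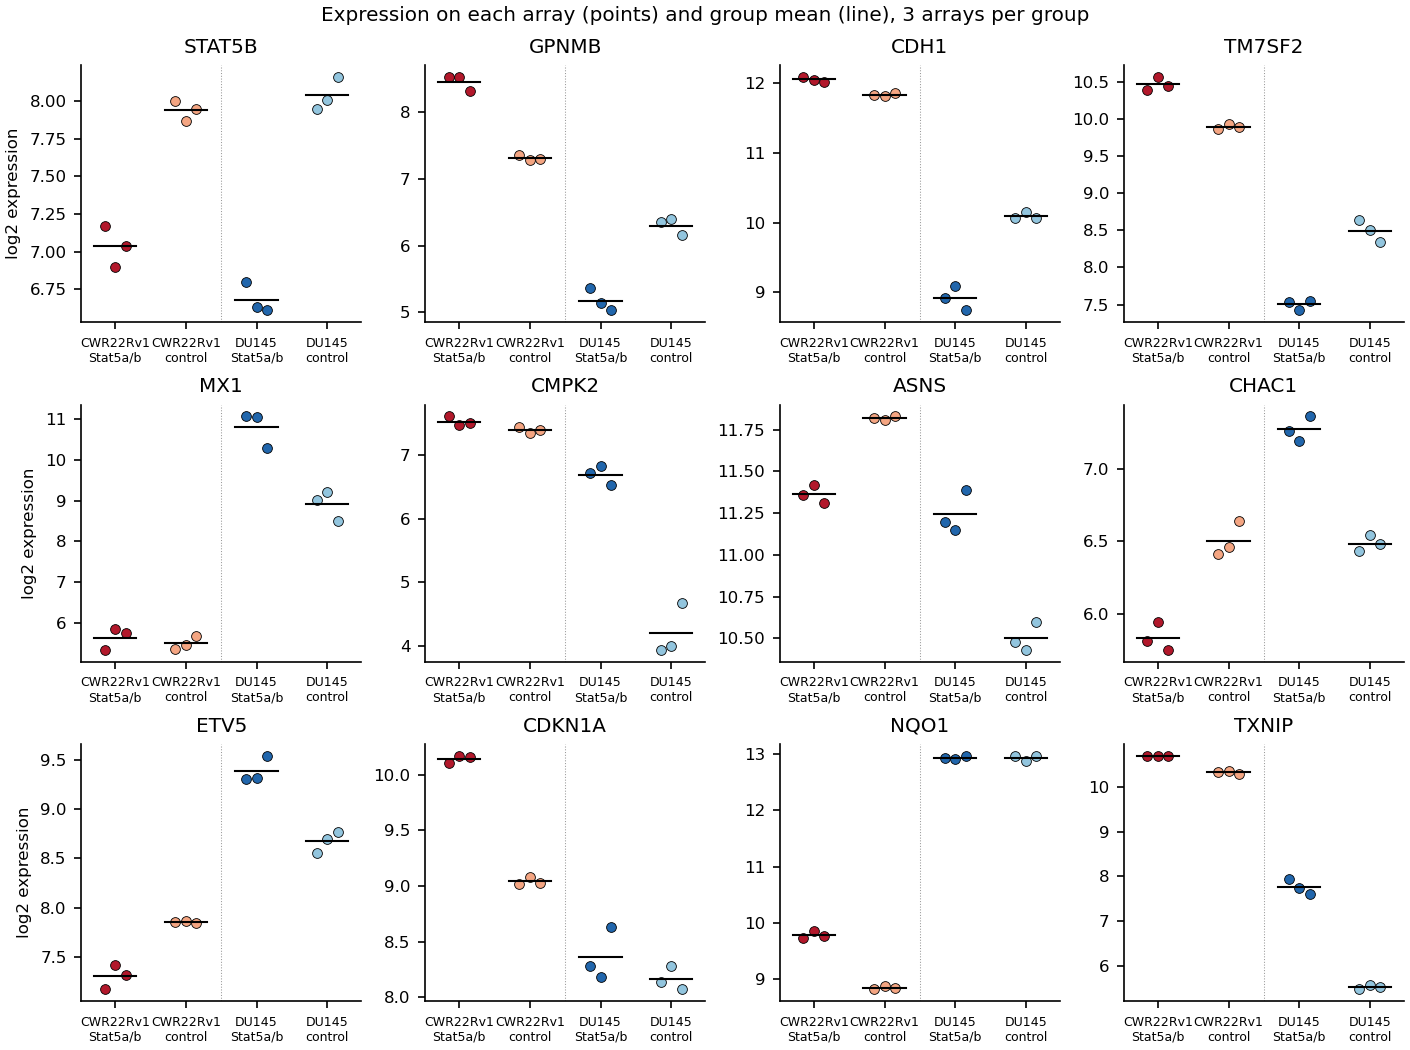
Log2 level of 12 genes on every array (points, 3 per group) with the group mean as a line, siRNA left of control in each line; each panel has its own vertical scale, which does not start at 0. GPNMB, ASNS, CHAC1 and ETV5 part in opposite directions in the lines, CDKN1A and NQO1 part in CWR22Rv1, and MX1 parts in DU145.

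Textbook STAT5 targets showed no shared direction, with 3 of 20 called higher and 4 lower and a median difference of -0.11. CISH, the feedback inhibitor with the 4 GAS matches printed above, read 6.75, 6.81 and 6.82 in CWR22Rv1 siRNA arrays, against 6.88, 7.0 and 6.92 in CWR22Rv1 control arrays. In DU145 CISH read 6.74, 6.71 and 6.67 with the siRNA, against 6.61, 6.48 and 6.54 in controls. The groups parted in opposite directions but by little: the changes of -0.14 and 0.17 passed in neither line, and the difference of -0.31 ± 0.09 (adjusted p = 0.0286) lost its call when some single arrays were left out. The CISH probe set used can hybridise with related transcripts. Another of the same kind changed by -0.127 in CWR22Rv1 and 0.267 in DU145. The remaining CISH probe set changed by -0.149 and -0.035, without a rise in DU145, and its difference was not called. CCND1, cyclin D1, fell by 0.57 in DU145 and was not called in CWR22Rv1 (difference 0.43 ± 0.09), a call that ended with the mean over probe sets, at 0.25. The differences of SOCS2, SOCS3, BCL2L1, MYC, PIM1 and BCL6 did not pass, at 0.17, 0.23, -0.25, -0.11, -0.10 and -0.30. BCL6, however, was called in 4 of 22 alternatives, among them the mean over probe sets at -0.45, and 1 of its other probe sets gave -0.84 with a change of -0.68 in CWR22Rv1. The difference of KLK3 was -0.09 at the probe set used and 0.80 and 0.32 at the other ones, and none of these passed. PIAS3 and PTPN6, brakes on STAT signalling, had differences of 0.50 and 0.60 and fell in DU145.

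The clock genes BMAL1 and DBP were called higher, and BMAL1 rose by 0.39 in CWR22Rv1 and fell by 0.34 in DU145. Androgen-responsive genes gave 4 higher, among them STEAP2, STEAP4 and ABCC4, and 1 lower of 20. Oxidative phosphorylation (25 genes), cytosolic ribosomal proteins (15), the proteasome (23) and housekeeping controls (12) held 0 genes called by limma in either direction. At an unadjusted p under 0.05 they held 6, 0, 3 and 2 genes, against 25.8% of all genes. Of the 4 leukocyte markers measured, CD14 was called, with a difference of 0.91 and a fall in DU145. S100A4, listed as a marker of DU145 itself, was called at 1.21 and also fell in DU145. The 5 fibroblast, 4 endothelial, 2 basal and 4 neuroendocrine markers measured held 0 called genes, and 1 of these at an unadjusted p under 0.05, a neuroendocrine marker.

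**Figure D5:**
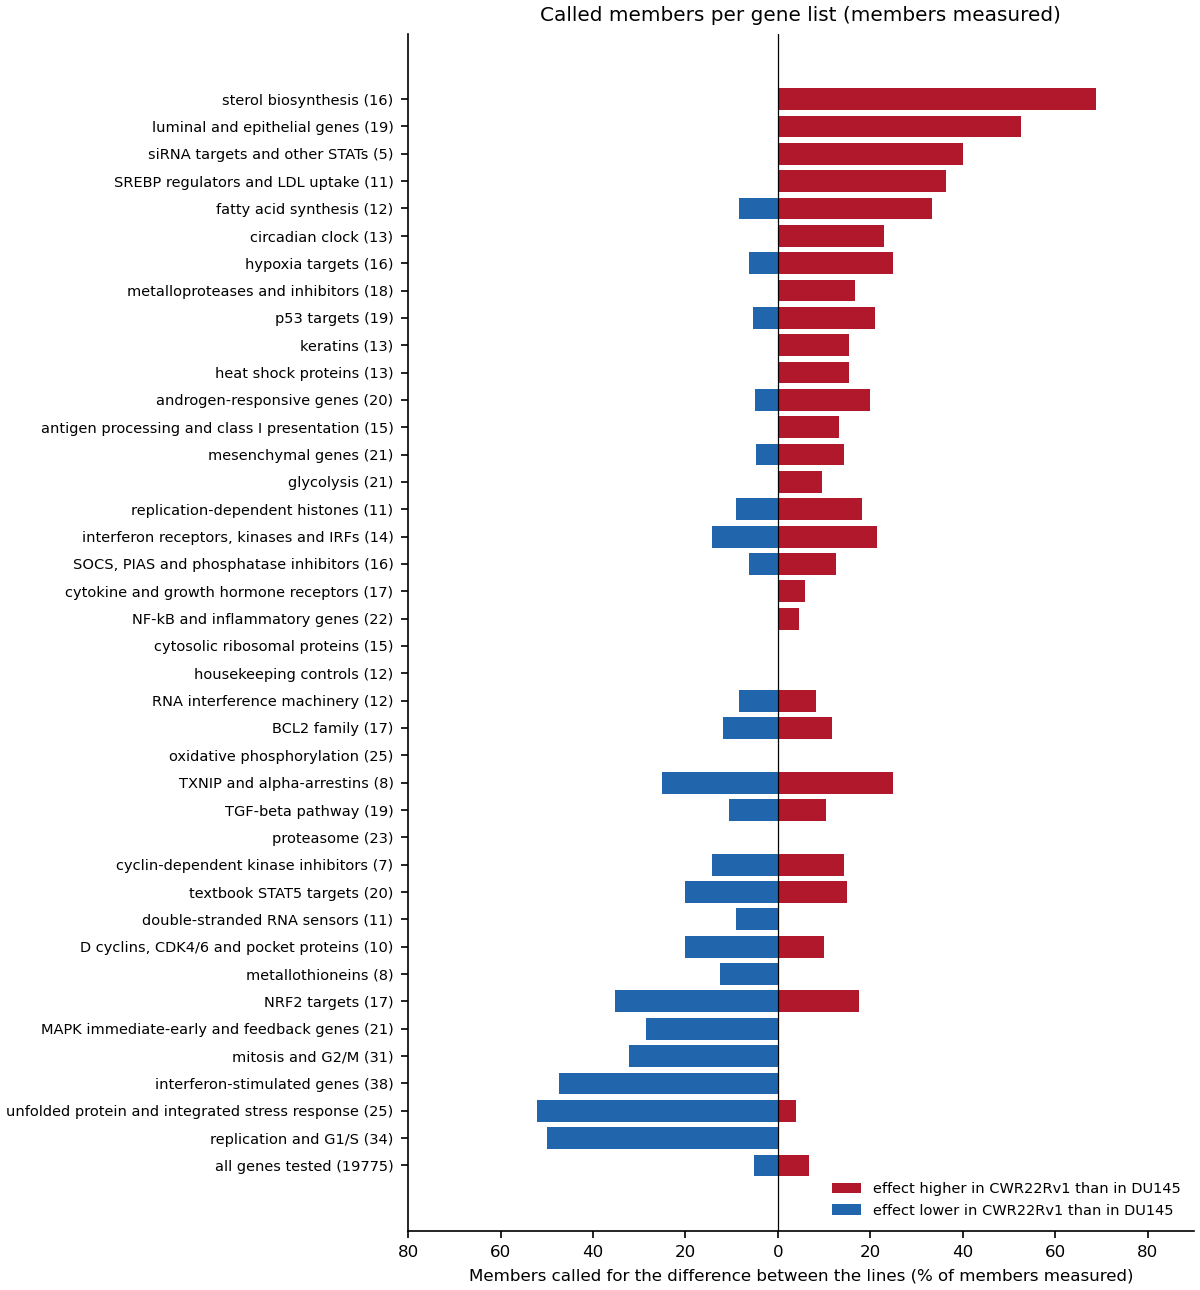
Share of the measured members of each list called for the difference between the lines (% of members, number measured in brackets), red to the right for a higher and blue to the left for a lower effect in CWR22Rv1. Sterol and epithelial lists hold called members on the right alone, and the interferon-stimulated, replication and mitosis lists on the left alone, against 6.75% and 5.17% of all genes.

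The same difference was set against that of Stat3 siRNA given to the same lines, in which the controls cancel: the Stat5a/b difference minus the Stat3 difference. It was called for 2086 genes (10.5%), 969 higher (4.9%) and 1117 lower (5.65%). That balance turned with the scaling, to 1185 higher and 951 lower with cyclic loess and 1103 higher and 1053 lower with quantile normalisation. Of the 2357 genes, 1065 were called there with the same sign and 2 with the opposite sign. Both tests hold the same Stat5a/b siRNA arrays, so like signs and like list counts are partly built in and are not independent support. The list counts in this test were 0 higher and 19 lower of 38 interferon-stimulated genes, 9 higher and 0 lower of 16 sterol genes, and 1 higher and 13 lower of 25 stress response genes. For the 19 epithelial genes they were 3 higher and 0 lower. Replication, mitotic and ERK-induced genes gave 0 higher and 13 lower of 34, 0 and 11 of 31, and 0 and 6 of 21. Set to the line's control mean, the replication mean in DU145 was 0.213 to 0.249 with Stat3 siRNA and 0.167 to 0.235 with Stat5a/b siRNA. In CWR22Rv1 it was 0.136 to 0.164 with Stat3 siRNA and -0.139 to -0.097 with Stat5a/b siRNA. The mitotic and ERK means in DU145 with Stat3 siRNA were 0.151 to 0.201 and 0.217 to 0.496. With Stat5a/b siRNA they were 0.099 to 0.141 and 0.154 to 0.535 in DU145. In CWR22Rv1 these means were 0.187 to 0.221 and 0.158 to 0.185 with Stat3 siRNA. With Stat5a/b siRNA they were -0.089 to -0.072 and -0.196 to -0.163 in CWR22Rv1. CDH1 was not called in the test against Stat3 siRNA (0.24 ± 0.11). Its difference between lines was 1.16 with Stat3 siRNA beside 1.40 with Stat5a/b siRNA. FGFBP1 was likewise not called, at 2.08 with Stat3 siRNA beside 2.30 with Stat5a/b siRNA; these pairs of values share control arrays. ASNS, CHAC1 and ETV5 stood at -0.09, -0.04 and 0.00 with Stat3 siRNA, and their tests against it were called at -1.11, -1.42 and -1.27. The genes named for this test stood at 2.18 for TNFRSF9, 1.72 for BCL2A1, 1.55 for ST3GAL5, 1.54 for ADAM12 and 1.51 for NUDT11 upward, and -2.52 for the thrombin receptor family member F2RL2, -2.46 for CMPK2, -2.31 for MX1, -2.21 for IRF7 and -2.13 for TXNIP downward. Of the 5 upward genes, ST3GAL5 alone was called for the Stat5a/b difference (1.31).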

How the data were processed

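Affymetrix U133 Plus 2.0 arrays measured total RNA of 18 samples, 12 of which enter the comparison. The deposited log2 values per probe set were made by the authors with RMA, and limma is also named, per the submitters' processing notes; versions are not given in the sources used here. RMA corrects background, quantile-normalises arrays and summarises probes, so levels are relative within the series and low values are compressed. Of 54675 probe sets, 41091 had 1 gene symbol, 1801 had several and the rest had none or were controls. Symbols came from the platform annotation and were matched to RefSeq (GRCh38.p14) through Entrez identifiers for 41037. For each of 19775 genes the brightest single-symbol probe set, by its mean over the 18 arrays, stood for the gene, which for 10523 genes meant choosing among several. Some items are not reported here. Detection calls were not used here.

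Group means were fitted to all arrays by lmFit and eBayes of limma 3.58.1 (R 4.3.3). The residual degrees of freedom were 12 and the prior ones 3.82. All tests were two-sided, and the Benjamini-Hochberg adjustment ran over all genes within a comparison. The SE given with a difference comes from that fit and pools the spread of all groups; its quartiles over genes were 0.108 and 0.178, and the number of arrays limits the precision. Percent of control is 2 raised to the log2 change. The fit was checked on simulated data.

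The comparison, the gene lists and the rule for named genes were chosen with earlier results of these data known. The rule takes a fixed set (the siRNA targets, STAT3, CISH, SOCS2, SOCS3, BCL2L1, CCND1, MYC, PIM1, BCL6, KLK3, CDH1 and VIM) and the 12 largest called differences each way whose siRNA arrays lay beyond the controls in 1 line or more. It adds the 6 largest each way called in opposite directions, the 6 largest changes each way called in CWR22Rv1 and not in DU145, 4 each way called in the same direction in both, up to 5 called members of each list with 3 or more, and 5 each way in the test against Stat3 siRNA. It named 156 genes, of which 142 were called for the difference. Further list members, marker genes and the promoters printed were chosen after their values were seen, as was the choice of which genes to give array by array, mostly ones whose call held under the alternatives. Alternatives were 22 in number: other normalisations, probe set choices, weights, a level filter, a replicate block and leaving out each array in turn.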

Additional observations from a re-analysis of the deposited data

Results flagged for a closer look

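The effect of Stat5a/b siRNA differed between the lines for 2357 genes by the test of the difference itself. Given here are this count, the 105 genes called in opposite directions and the 24 of them that the report's rule names; the other named genes with a called difference are those described in the report.

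Of the 24 genes, 11 were higher in CWR22Rv1. FGFBP1 and GPNMB differed by 2.30 and 2.27, CLIC3 by 1.93 and TM7SF2 by 1.57. The bicarbonate transporter SLC4A4 differed by 1.35 and EMB, embigin, by 1.19. CLDN3 differed by 1.08, the collagen gene COL1A1 by 0.82 and BMAL1 by 0.72. For COL1A1, 2 of 5 probe sets were called for the difference, and the lowest value among them all was -0.20, not called. LTBP1, which binds latent TGF-beta, differed by 0.53, and the transketolase gene TKT by 0.46.

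The other 13 were lower in CWR22Rv1. TMED6 differed by -1.96 and CHAC1 by -1.46. PLSCR1, an interferon-inducible scramblase, differed by -1.45, MOB3B by -1.27 and ETV5 by -1.26. PMAIP1 differed by -1.21, ASNS by -1.20, SLC7A11 by -1.15 and ETV4 by -1.12. IFIT5 differed by -1.02, TRIB3 by -0.97, PSAT1 by -0.69 and MCM10 by -0.65. Groups of 3 arrays are too small for a test of single outlying arrays.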

How the results depend on the processing

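The count of 2357 genes ranged from 1677 to 2694 when 1 array was left out and from 1887 to 2965 under the other alternatives, each within 1.5 times. The CWR22Rv1 count (1277) was 2723 with array weights per line and ran from 718 to 1473 when 1 array was left out, all 6 omissions of a CWR22Rv1 array giving 844 or fewer. Genes called in opposite directions (105) numbered 220 with array weights per line, 168 with an intensity trend and robust fit, 179 with the replicate block, 216 among genes with a mean above 6, and 57 to 130 when 1 array was left out. Quantile normalisation turned the within-line balance, to 712 higher and 625 lower in CWR22Rv1 and 2631 and 2293 in DU145, beside 624 and 653, and 2334 and 2471. The CWR22Rv1 balance also turned with cyclic loess (702 and 611), array weights per line (1453 and 1270), a mean above 6 (836 and 835) and without DU145 siRNA replicate 3 (742 and 731). That of DU145 also turned without DU145 siRNA replicate 3 (2473 and 2390) or control replicate 3 (2454 and 2413); that of the difference between lines turned under no alternative run. The causes were not tested. Replicate numbers were not taken as pairs: same-numbered deviations correlated at 0.139, 0.091 and 0.053 in CWR22Rv1 and 0.064, 0.122 and 0.175 in DU145, although every array correlated best with its own number; the block called 2965 genes, 2271 of them shared.

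Of 142 named genes called, 102 kept call and direction under every alternative that tested them, and 3 reversed with the probe set of highest variance: ABCG1 (-0.091), ACACA (-0.013) and BCL2L11 (-0.071). Leaving out 1 array ended the call of 21: ABCG1, ACSL1, ADAM10, ADAM17, ARRDC1, CISH, DDB2, FADS2, H3C2, IFI27, JAK1, LOX, MLXIPL, NDRG1, PHLDA3, RBL1, STAT5B, TEF, TGFBR3, TSC22D3 and TYK2. Another probe set choice ended that of ABCC4, AKR1C1, BCAT1, BIRC5, CCND1, DBP, ETV5, FN1, IFNAR1, KIF2C, LTBP1, MCL1, P4HA1, RNF141, SKIL, SMAD6 and SPRED2. Of 96 such genes with several probe sets, 75 had all on the same side and 0 had one called on the opposite side. Dim levels limit the differences of genes near background in one line.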
